A study of Apis mellifera with 25 samples.

Results

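A position was called shared when the deposited allele tables listed the same single-nucleotide position under more than 1 gene. In honey bee workers (Apis mellifera), 2805 of the 64053 positions that lay in a gene were shared, or 4.38%, and the tables held 116744 positions in all, those outside genes included. Every shared position was listed under exactly 2 genes, and each was counted once. They joined 713 genes into 384 overlapping pairs.

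Each of the 25 libraries held RNA from 1 adult worker of reciprocal crosses between Africanized and European honey bees, kept in a colony without a queen for about 18 days. Dissection sorted the workers into 12 with active ovaries, reproductive, and 13 with inactive ovaries, sterile. Polyadenylated RNA came from the eviscerated abdomen with fat bodies and ovaries attached. Library titles begin with 1 of 4 numbers, called prefixes here (875, 882, 888 and 894), and each prefix holds 3 active and 3 or 4 inactive libraries. What a prefix marks, and which lineage gave the mother, is not stated in the labels, so the cross is described by prefix. Bees of a prefix may share parents, and replicate numbers follow the deposited order. The series asks, by its design text, about the kinship theory of conflict within genomes.

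Each position carries D and Q read counts for every library. Because no label or header defines the letters, D was taken to stand for the drone father and Q for the queen mother. A honey bee drone develops from an unfertilised egg and is haploid, so all workers of 1 father carry the same paternal alleles, whereas the alleles of a queen reshuffle among her daughters. Where 2 genes overlap, a read without strand information can come from either of them. The files do not state strand or the counting rule, so reads at a shared position could not be assigned to 1 gene, and values of either partner are uncertain to that extent. The identifiers carry no gene names here, because 0 of the members matched the reference gene table (assembly Amel_HAv3.1). The tissue could not be checked against marker genes for the same reason. Scaffold positions are those of the files, whose build is not given in the sources used here.

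Overlapping pairs were spread over all 16 linkage groups. Shared positions made up from 0.512% of the genic positions on linkage group 15 to 8.36% on linkage group 7. Members were 13.4% of the 5333 genes with a position. Of these, 667 belonged to 1 pair and 46 to more than 1, and no gene belonged to more than 4.

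Most overlaps held few positions. There were 147 pairs with 1 shared position, 73 with 2 and 69 with at least 10, and the median was 2. The 10 largest pairs held 926 positions, 33.0% of the total. The largest was GB44325/GB44336 on scaffold Group7.22, with 234 positions between 230446 and 292907. The second was GB46405/GB46526 on Group1.23, with 152 positions between 1114201 and 1232475. Among the 237 pairs with more than 1 shared position, these positions spanned a median of 1821 bases, from 5 to 118274 bases.

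Overlaps were of 2 kinds. In 310 pairs at least 1 gene had no position outside the overlap, and in 53 of them neither gene had one. In the other 74 pairs each gene had positions of its own. None (0) of the unshared positions of a gene lay between the first and last positions of its partner, so the span seen here was shared throughout. Of the shared positions, 2318 were listed for active and 2596 for inactive libraries, with 2109 listed for both. That was 75.2% of them, beside 75.1% of positions in a single gene. Both listings of a position carried identical counts in every library.

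Gene totals ran from 7.54 to 37.7 counts per library in units of 1e6. The median shared position had from 2 to 30 reads per library, and the mean over all libraries was 50.6 reads, against 53.6 for positions in a single gene. At many positions D and Q were equal in every library of a prefix. This held for 34.8%, 35.2%, 33.7% and 32.2% of the shared positions with enough reads in prefixes 875, 882, 888 and 894. For positions in a single gene the shares were 24.8%, 32.1%, 30.3% and 31.7%. D shares below use separating positions, which leave out those whose D and Q counts lay closer together than chance counting of equal amounts would nearly always give. A separating position need not differ from equal. These were 34.7%, 33.9%, 41.5% and 39.5% of the shared positions. The choice favours unequal ratios in either direction. Neighbouring positions can be covered by the same reads, so they are not independent. In some pairs the counts were also nearly constant over long stretches. In GB53773/GB53801, positions 462788 and 496858 both had 597 reads in prefix 882. Sums of reads and counts of calls may therefore hold the same tally more than once, which was not tested. Inactive replicates 6, 8 and 9 stood apart in their allele shares in earlier work on these data, so counts are also given without them where they move.

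Summed over shared separating positions, the D share was near 50% in most libraries of either ovary status. Among active libraries it was 51.1% ± 5.75 (SD, n = 12), with 39.3% as the lowest value, a median of 51.5% and 63.0% as the highest. Among inactive libraries it was 52.4% ± 9.63 (SD, n = 13), from 42.6% through a median of 51.1% to 81.3%. The ranges overlapped. The mean active minus inactive difference within prefixes was -1.83 percentage points (exact permutation test within prefixes, two-sided, p = 0.633).

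Means of the prefixes lay farther apart than those of the ovary statuses, which was not tested. The mean D share was 49.1% ± 3.02 (SD, n = 6) in prefix 875 and 46.5% ± 5.19 (SD, n = 7) in prefix 882. It was 57.6% ± 11.7 (SD, n = 6) in prefix 888 and 54.6% ± 4.75 (SD, n = 6) in prefix 894. In prefix 888, inactive replicate 8 had 81.3% and the other libraries lay between 51.1% and 54.7%. At unshared positions of the same genes the corresponding means were 52.4%, 51.8%, 56.1% and 55.4%. Over the 4 prefixes the shared positions lay -1.98 points from the unshared ones (exact sign-flip test, two-sided, p = 0.375). The smallest p that 4 prefixes allow in this test is 2 of 16 sign flips. The shared value was the higher one in 5 of 25 libraries.

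**Figure D1:**
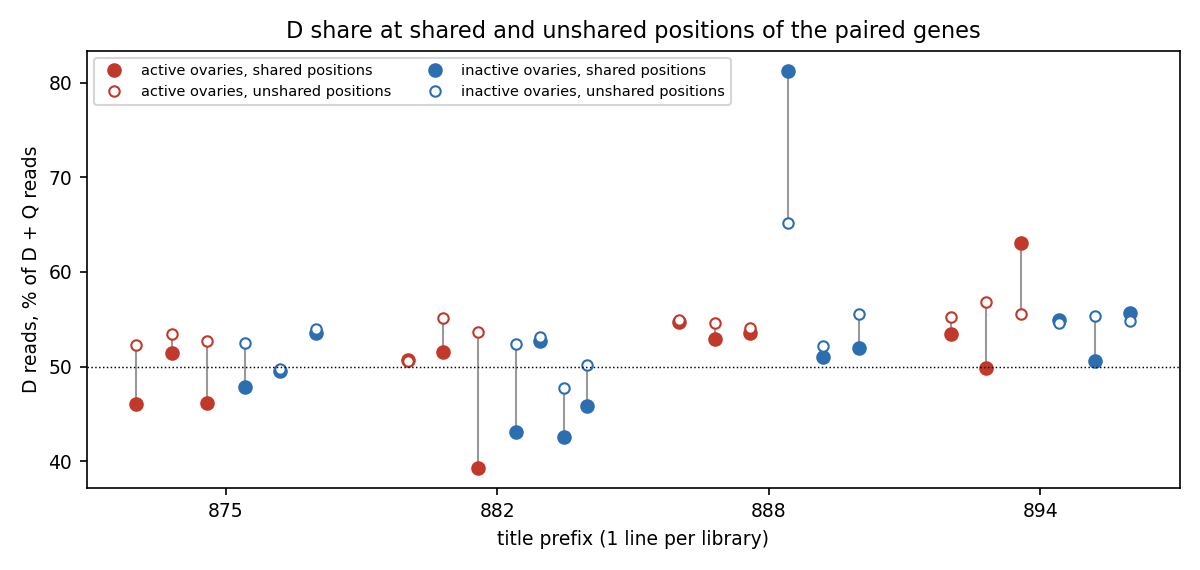
D share of each library, as a percent of D plus Q reads, by title prefix and ovary status; filled points are shared positions and open points unshared positions of the same genes, joined by a line for each library. Shared positions run from 39.3% to 81.3%, and the highest point is inactive replicate 8 of prefix 888.

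A few pairs carried much of these sums. The pair GB51989/GB52090 took 14.0% of all reads at shared separating positions, GB55388/GB55620 took 8.03%, GB53773/GB53801 took 5.65% and GB42956/GB42974 took 3.82%. These shares grow with the number of positions of a pair, and the same reads may be counted at more than 1. Without GB51989/GB52090 the D share averaged 57.3% ± 4.61 (SD) over the 12 active libraries and 57.1% ± 9.80 (SD) over the 13 inactive ones. This pair was chosen after its values were seen and leaned towards Q, so that leaving it out moves the sums towards D by its choice. The shared minus unshared difference was then 3.45 points, and 3.39 points when the unshared positions of its genes were left out as well; neither value is given as a test. Without GB42956/GB42974, which leaned towards D, the difference was -3.94 points. The active minus inactive difference turned to 1.15 points without GB42956/GB42974 (exact permutation test, p = 0.546), to 0.65 points without inactive replicate 8 (p = 0.688), and to 0.15 points without inactive replicates 6, 8 and 9.

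In inactive replicate 8, which had the highest D share, 1 pair outweighed the others. GB42956/GB42974 supplied 17141 of its 28195 reads at shared separating positions, or 60.8%. Of the reads of this pair, 11982 D and 19 Q reads lay at position 223149 of Group6.28. In inactive replicates 9 and 10 of the same prefix, that position had 594 D and 0 Q reads, and 6 D and 4 Q reads. Without the pair, the D share of inactive replicate 8 was 52.5%.

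GB42956/GB42974 overlapped on Group6.28 and held the largest ratio towards D among shared positions called in all 4 prefixes with at least 500 reads. Its 19 shared positions ran from 196530 to 255768, and 99.3% of the reads at them, over all libraries, fell within a stretch from 223106 to 223337. At position 223284 the D share was 96.5% at the lowest, 99.5% at the median and 100% at the highest of 12 active libraries. In the 13 inactive libraries it was 99.02%, 99.8% and 100%. At this position no library of either status was close to 50%. The 11 shared positions outside the stretch had 277 D and 291 Q reads over all libraries, or 48.8% D. At its own separating positions GB42974 had 47.5% D in prefix 882 and 47.8% in prefix 888, on 61 and 67 reads, and GB42956 had 100% in prefix 882 on 29 reads. By prefix, the log2 ratio of D to Q was 7.58 ± 0.42 (SE) for 875, 7.87 ± 0.37 for 882, 7.75 ± 0.31 for 888 and 7.44 ± 0.78 for 894. All were called towards D (edgeR quasi-likelihood test, adjusted p from 7.81e-05 to 0.0023). The total counts of both genes were also nearly tied, with r = 0.998 over 25 libraries.

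GB47217/GB47299 shared 1 position, Group11.16 position 1353059, with a D share near 100% in 3 prefixes and equal counts in the other. In active libraries the D reads were 93.3%, 97.2% and 92.5% (prefix 875), 92.8%, 100% and 97.3% (prefix 882), and 93.5%, 92.9% and 93.6% (prefix 888). In inactive libraries they were 99.4%, 96.5% and 93.7% (prefix 875), 94.5%, 97.6%, 95.3% and 99.1% (prefix 882), and 98.2%, 96.6% and 99.1% (prefix 888). All 6 libraries of prefix 894 lay between 49.7% and 50.2%, so that the position did not separate D from Q there. The log2 ratios were 4.46 ± 0.41 (SE), 5.10 ± 0.57 and 4.65 ± 0.22 (edgeR quasi-likelihood test, adjusted p = 0.0018, 0.0016 and 6e-04). GB47217 contained 3 other overlapping genes.

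Towards Q, the largest mean ratio among shared positions called in all 4 prefixes with at least 500 reads was at Group11.18 position 4507293 of GB44880/GB45284. A larger ratio was seen in 1 prefix at Group2.18 position 497301 of GB49768/GB49799, with -5.39 ± 0.89 (SE) in prefix 888, but that position was called towards D in prefix 894. At Group11.18 position 4507293 the D share was 0% at the lowest, 5.16% at the median and 10.5% at the highest of 12 active libraries. It was 0%, 9.80% and 18.2% in 13 inactive libraries. Each library was far below 50%. By prefix, the log2 ratios were -3.44 ± 0.34 (SE) for 875, -3.88 ± 0.41 for 882, -3.52 ± 0.40 for 888 and -4.99 ± 0.48 for 894 (edgeR quasi-likelihood test, adjusted p from 0.0013 to 0.0047). The reads were few, between 159 and 185 per prefix. The total counts of GB44880 and GB45284 did not move together, with r = -0.19 and rho = -0.18 (permutation test, adjusted p = 0.677 and 0.692).

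GB51989/GB52090 gave the most reads towards Q. Its 13 shared positions lay within 254 bases of Group12.17, between 1815470 and 1815724, and were separating in all 4 prefixes. At position 1815724 the D share was 2.81% at the lowest, 14.2% at the median and 21.2% at the highest of 12 active libraries. It was 2.12%, 17.1% and 35.7% in 13 inactive libraries, and all 25 libraries lay below 50%. By prefix, the log2 ratios there were -1.97 ± 0.17 (SE) for 875, -3.89 ± 0.59 for 882, -1.76 ± 0.12 for 888 and -3.28 ± 0.37 for 894 (edgeR quasi-likelihood test, adjusted p from 0.0014 to 0.0054).

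The shared stretch of GB51989/GB52090 differed from the positions of GB52090 outside the overlap. Summed over its 13 positions, the D share was 19.9%, 9.21%, 32.0% and 16.9% in prefixes 875, 882, 888 and 894. At separating positions of GB52090 outside the overlap it was 44.1%, 35.3% and 46.0% in prefixes 875, 882 and 894, and prefix 888 had none. This difference was not tested. GB51989 had no position outside the overlap.

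**Figure D2:**
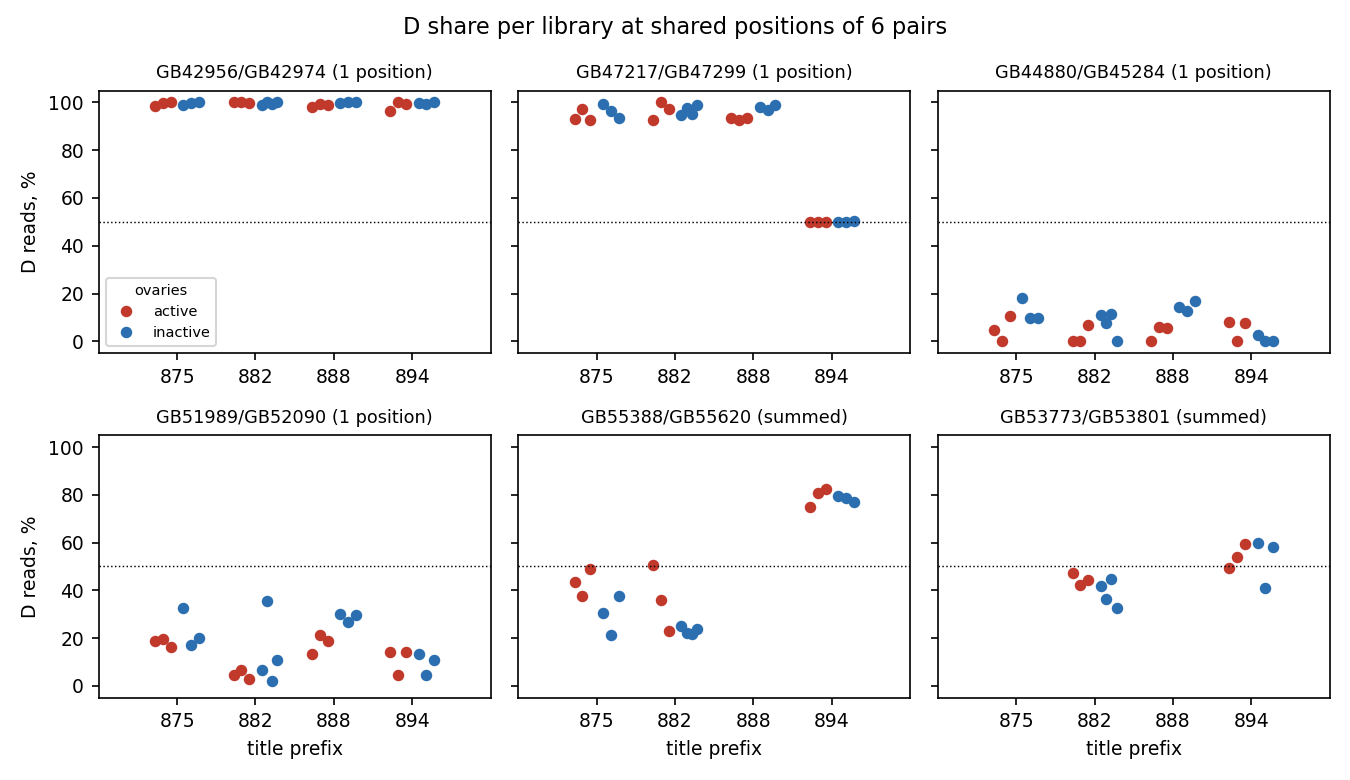
D reads as a percent of D plus Q reads, 1 point per library, by title prefix and ovary status, at 1 shared position of 4 pairs and summed over the separating shared positions of 2 pairs; the dotted line marks 50%. GB42956/GB42974 lies near 100% and GB44880/GB45284 below 20% in every prefix, while GB55388/GB55620 lies low in 875 and 882 and high in 894.

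In GB55388/GB55620, the direction depended on the prefix. The pair shared 20 positions of Group2.19, between 2200120 and 2203143, and GB55620 had no other position. In the active libraries of prefix 894 the summed D share averaged 79.5% ± 4.01 (SD, n = 3), and in its inactive libraries 78.4% ± 1.17 (SD, n = 3). The active and inactive means of prefix 875 were 43.5% ± 5.66 (SD, n = 3) and 29.9% ± 8.20 (SD, n = 3). Those of prefix 882 were 36.5% ± 13.8 (SD, n = 3) and 23.2% ± 1.63 (SD, n = 4). No separating position was left in prefix 888. All 6 libraries of prefix 894 were above every library of the other prefixes shown. At position 2202590 the log2 ratio was -0.69 ± 0.18 (SE), -1.07 ± 0.23 and 1.89 ± 0.10 in prefixes 875, 882 and 894 (edgeR quasi-likelihood test, adjusted p = 0.047, 0.025 and 2.6e-04).

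The unshared positions of GB55388 gave nearly the same D shares as the overlap. They were 31.4%, 23.6% and 78.8% in prefixes 875, 882 and 894, against 32.3%, 23.8% and 78.8% for GB55388/GB55620 at shared positions. Read counts hardly changed along the overlap, with 1235 reads at both 2200296 and 2201447 in prefix 882. In that prefix the 19 unshared positions held 23479 reads and the 20 shared ones 24806. Whether the unshared positions give a separate measurement could not be told. In GB53773/GB53801, whose 53 shared positions lay on Group7.10 between 453337 and 525967, the summed D share was 41.3% ± 5.17 (SD, n = 7) in prefix 882 and 53.6% ± 7.27 (SD, n = 6) in prefix 894. In prefix 894 the unshared positions of GB53773 had 53.9%, beside 53.3% in the overlap with GB53801. In prefix 882 the unshared positions of GB53801 had 49.6% on 476 reads, beside 42.4% in the overlap.

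Reversals between prefixes were found at 25 shared positions of 5 pairs. These pairs were named after their values were seen. Besides GB55388/GB55620 they were GB49768/GB49799, GB50402/GB50482, GB44445/GB44666 and GB44445/GB44667. For the last 2 pairs, at positions 2241749 and 2242120 of Group5.14, the call towards Q was in prefix 888. It rests on the mean of both ovary statuses. The D share there averaged 49.7% and 49.6% in active libraries, and 19.5% and 19.3% in inactive ones. These 2 positions carried nearly the same counts, so they are not separate reversals. The clearest contrast was Group4.9 position 1320206 of GB50402/GB50482. In prefix 882 the D share was 100%, 100% and 95.7% in active and 91.7%, 100%, 100% and 100% in inactive libraries. In prefix 875 it was 22.7%, 20% and 30.8% in active and 22.9%, 23.5% and 16.2% in inactive libraries. Prefixes 888 and 894 lay between 43.8% and 61.8%. The log2 ratio was 5.22 ± 0.48 (SE) in prefix 882 and -1.77 ± 0.16 in prefix 875 (edgeR quasi-likelihood test, adjusted p = 0.00090 and 0.0017), on 109 and 179 reads.

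Across all shared positions, calls were made on D and Q counts within each prefix, over all positions of the tables together. In prefix 875, 41 of 397 shared positions tested were called towards D and 43 towards Q (edgeR quasi-likelihood test, adjusted p under 0.05), beside 14.6% and 3.97% of all positions tested. In prefix 882, 21 of 280 were called towards D and 77 towards Q, beside 11.3% and 4.25%. In prefix 888 the counts were 29 and 20 of 248, beside 12.6% and 4.58%. In prefix 894 they were 57 and 23 of 377, beside 15.8% and 3.77%. Shares called towards Q were thus above the background in each prefix, and those towards D were below it. Positions in a single gene were called towards D in 10.3%, 9.77%, 10.3% and 16.5% of those tested, so beside these the shared positions were not lower in every prefix.

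Calls were concentrated in few overlaps. The 3 pairs with most calls held 152 of the 311 calls, or 48.9%. Positions of 1 pair can carry nearly the same counts, so such calls are not separate findings. Without these 3 pairs, 128 calls towards D and 31 towards Q remained. The Q calls were then 10 of 364, 4 of 205, 7 of 235 and 10 of 302 positions in prefixes 875, 882, 888 and 894. In each prefix this was below the share of all positions called towards Q. The 3 pairs were picked for their calls, so leaving them out lowers these counts by choice. Of 197 pairs with a tested position, 75 had a call, 56 of them towards D only, 13 towards Q only and 6 in both directions. Within a prefix, 0 pairs had calls in both directions. Of 202 positions with a call, 16 in 4 pairs were called in all 4 prefixes in the same direction, 1 in 3 prefixes, 14 in 2 and 146 in 1. The other 25 were called in both directions.

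**Figure D3:**
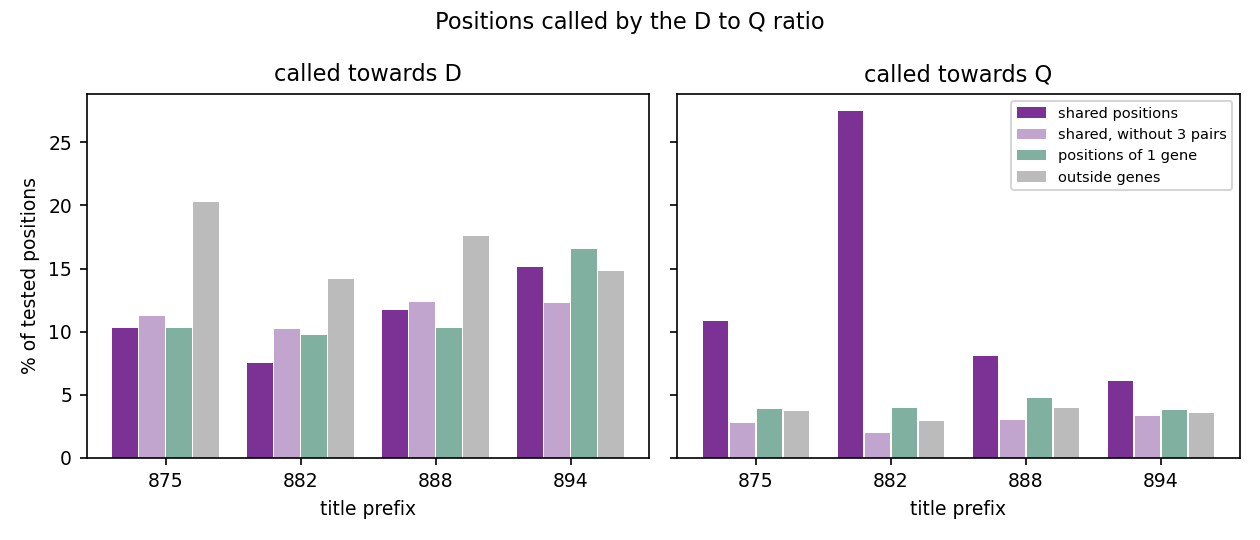
Percent of tested positions called towards D (left) and towards Q (right) in each title prefix, for shared positions, shared positions without the 3 pairs with most calls, positions in 1 gene and positions outside genes. The Q bar of shared positions in prefix 882 stands for 77 of 280 positions, and for 4 of 205 without the 3 pairs.

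Few shared positions were called for a change in D to Q ratio with ovary status, and the test has limited reach. A simulation covered prefix 875 only, with a spread between libraries that was set and not estimated from the data. Recovery in the data may therefore differ. On the simulated counts the test recovered 14% of 2-fold and 68% of 4-fold differences between ovary statuses, over 17250 positions. The test of that difference called 0 shared positions in prefixes 875, 882 and 894, beside 0%, 0.01% and 0.00821% of all positions tested (edgeR quasi-likelihood test), with 27, 8 and 2 at an unadjusted p under 0.05. In prefix 888 it called 3 of 248, beside 0.328% of all positions, with 23 shared positions at an unadjusted p under 0.05. For positions in a single gene, this test gave an unadjusted p under 0.05 at 186 of 9403 in prefix 875. It did so at 172 of 6070 in prefix 882, 533 of 5429 in 888 and 189 of 6799 in 894. Outside genes the counts were 139 of 7450, 224 of 3648, 246 of 2548 and 169 of 5008. The shared positions tested numbered 397, 280, 248 and 377 in prefixes 875, 882, 888 and 894. With limma the difference was called at 1 shared position over all prefixes. The share of all positions called with limma is not given here.

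All 3 lay on Group5.14, at positions 2241749 and 2241835 of GB44445/GB44666 and 2242120 of GB44445/GB44667. At position 2242120 the active libraries of prefix 888 had 77 D and 92 Q, 99 D and 95 Q, and 113 D and 104 Q reads. The inactive libraries had 6 D and 25 Q, 20 D and 109 Q, and 3 D and 10 Q reads. The groups did not overlap, with mean D shares of 49.6% ± 3.498 (SD, n = 3) and 19.3% ± 3.79 (SD, n = 3). The log2 difference in ratio was 2.16 ± 0.22 (SE) (edgeR quasi-likelihood test, adjusted p = 0.038). In prefix 882 the difference had the same direction. The mean D share there was 54.9% ± 7.21 (SD) over 3 active libraries and 40.4% ± 5.23 (SD) over 4 inactive ones. That difference missed the threshold, at a log2 difference of 0.84 ± 0.26 (SE) (edgeR quasi-likelihood test, unadjusted p = 0.015, adjusted p = 0.650). In prefix 894 the same position was mostly D in both groups, and in prefix 875 D and Q were equal within 2 reads in every library. The calls were lost when any of 5 libraries of prefix 888 was left out, and without inactive replicate 10, the sixth, 16 shared positions were called. Shares called among all positions in these fits are not given here. The 16 therefore do not set shared positions against other positions.

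Shared and unshared positions of a gene pair were compared for their D share in each prefix. Among 458 combinations of pair and prefix with at least 50 reads on each side, from 179 pairs, both D shares lay on the same side of 50% in 69.2%. The median absolute difference was 5.52 points. For unshared positions of both partners the same side was found in 67.9% of 109 combinations from 38 pairs, and for neighbouring genes that share no position in 62.3% of 3131. Pearson correlations were 0.30, 0.29 and 0.13 as a description, since combinations of 1 prefix come from the same libraries.

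Shared positions also enter the parental test of each gene, where the same reads are summed for both partners. With active ovaries 87 of 199 member genes tested were called towards D and 9 towards Q (edgeR quasi-likelihood test, adjusted p under 0.05), beside 39.7% and 7.16% of 1005 genes tested. With inactive ovaries 48 of 185 were called towards D and 8 towards Q, beside 27.8% and 6.36% of 944. In all, 48.2% of members were called with active ovaries and 46.5% of other genes. With inactive ovaries the shares were 30.3% and 35.0%.

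When shared positions were left out, 50 of the 96 called members with active ovaries could no longer be tested, 41 were still called, 5 lost the call and 5 others gained one. With inactive ovaries the counts were 29, 24, 3 and 4 for 56 called members. GB43054 lost its call with active ovaries, its log2 ratio going from 0.74 ± 0.22 (SE) to 0.38 ± 0.22 (edgeR quasi-likelihood test, adjusted p = 0.018 and 0.176). GB54496 lost it with inactive ovaries, from 0.43 ± 0.10 to 0.04 ± 0.07. GB42165 gained one with active ovaries, from 0.03 ± 0.08 to 0.82 ± 0.16. Both partners were called in 23 pairs with active and 15 with inactive ovaries, always in the same direction, and 10 and 4 of these pairs rested on identical summed reads. In the other pairs too, reads at shared positions can enter both sums. The matching direction is therefore partly built in, and it is not given without shared positions.

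The gene table was then used to ask whether paired genes move together in total counts. For 375 pairs with both genes above the low-count filter, log2 CPM (counts per 1e6 counts) were correlated over the 25 libraries after the mean of each prefix and ovary status was removed. The median Pearson correlation was 0.78 and the median Spearman correlation 0.73. For 4337 pairs of neighbouring genes that share no position, the median Pearson correlation was 0.23, and over all 86546746 gene pairs it was close to 0. A positive correlation was called in 240 shared pairs, or 64.0%, beside 20.3% of the neighbours (permutation test within prefix and status, 100000 resamples, Benjamini-Hochberg over all pairs). A negative one was called in 0 shared and 104 neighbouring pairs. Without the 2 libraries farthest from the median of the first gene, the median correlation over pairs was 0.69.

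**Figure D4:**
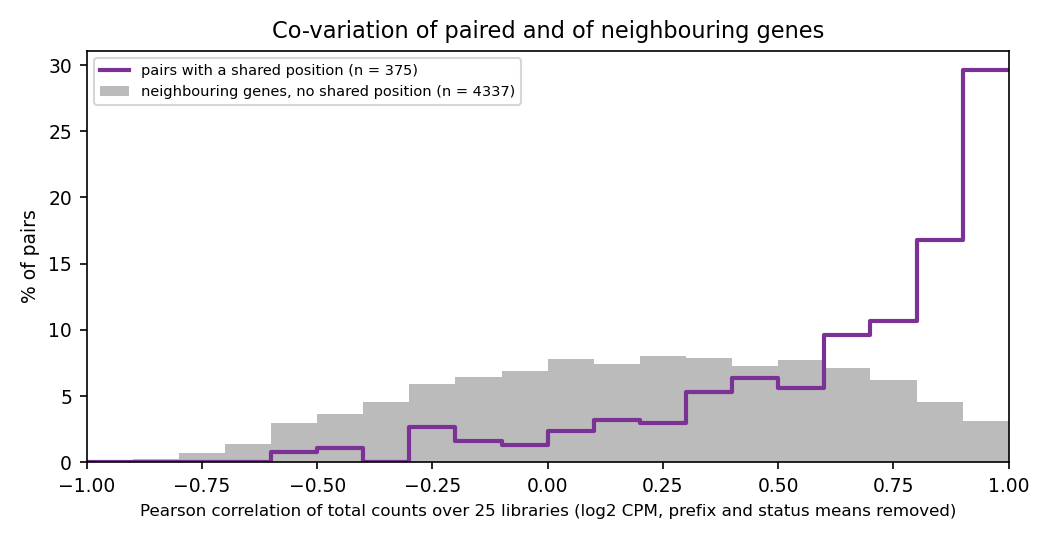
Distribution of Pearson correlations of log2 CPM between the genes of a pair over 25 libraries, as a percent of pairs in bins of 0.1, for 375 pairs with a shared position (line) and 4337 neighbouring pairs with none (bars). Of the shared pairs 29.6% lie at 0.9 or above, and of the neighbours 3.16%.

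Median correlations were higher in pairs with more shared positions and with more similar totals. The median was 0.71 in 143 pairs with 1 shared position, 0.77 in 164 pairs with 2 to 9 and 0.89 in 68 pairs with at least 10. It was 0.44 in 97 pairs whose smaller total was under 10% of the larger, and 0.998 in 19 pairs where it was at least 90%. For neighbours in the same classes the medians were 0.16 and 0.99, the latter over 6 pairs. Totals are not divided by gene length, which the files do not give. The median was 0.80 over active and 0.78 over inactive libraries.

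In 2 pairs the smaller total was at least 98% of the larger in every library, and they were named after their values were seen. GB40021/GB40028 on Group1.33 had the highest correlation of all. GB40021 had 12694 counts at the lowest, 52931.5 at the median and 103111 at the highest of 12 active libraries, and GB40028 had 12834, 53351.5 and 103292. In 13 inactive libraries the counts were 14764, 45903 and 87702 for GB40021 and 14890, 45995 and 87922 for GB40028. GB40028 was higher by a small margin in every library. Summed over libraries GB40021 had 99.6% of the counts of GB40028. GB53846/GB53863 on Group13.9, with 1 shared position, had identical counts in most libraries, among them 514 and 514 in active replicate 1. How reads were counted for both genes is not stated in the sources used here, and its part in these correlations was not tested.

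Not all pairs moved together. In 28 of the 375 the correlation was below 0. The lowest was GB41542/GB41544 on Group13.15, where GB41544 lay within GB41542 and had far fewer counts. GB41542 had 1096 CPM at the lowest, 1614 at the median and 2219 at the highest of 12 active libraries, and 704, 1425 and 2504 in 13 inactive libraries. GB41544 had 4.68, 9.63 and 24.2 CPM with active ovaries and 5.01, 8.41 and 20.01 with inactive ovaries. The correlation was r = -0.56 and rho = -0.56 over 25 libraries (permutation test, adjusted p = 0.065 and 0.066), which missed the threshold.

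At a position with at least 20 reads in a library, the reads can be set against the gene total. At shared positions 666 of 21967 such values, or 3.03%, were above the smaller total of the pair and 0 were above the larger. At positions in a single gene 0.557% were above the total of that gene.

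Ovary status was tested gene by gene on total counts. Of 704 member genes tested, 60 were higher with active ovaries, or 8.52%, beside 11.3% of all 13157 genes (edgeR quasi-likelihood test, adjusted p under 0.05). Another 97 were lower, or 13.8%, beside 10.4%. The median log2 change was -0.17 over members and -0.04 over all genes, and the median log2 CPM was 5.11 and 3.82. In bulk RNA, fewer cells of a type and less RNA per cell cannot be told apart. The count depended on the prefixes: 245 members were called without prefix 875, 12 without 888 and 1 without 882. Without inactive replicates 6, 8 and 9 it was 81. Shares called among all genes in these fits are not given here. These counts therefore do not set members against other genes.

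Where both partners were called, their directions mostly matched. Both genes were higher in 16 pairs, both lower in 31, and they were called in opposite directions in 1. The calls had the same direction in 97.9% of the 48 pairs with both genes called. Among neighbours it was 73.6% of 375 such pairs. The sign of the log2 change was the same in 79.5% of shared and 60.9% of neighbouring pairs, and the median absolute difference in log2 change was 0.17 and 0.39.

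GB52279/GB52320 on Group5.2 had the largest rise. GB52279 had 177 CPM at the lowest, 1089 at the median and 2904 at the highest of 12 active libraries, and 69.3, 239 and 875 in 13 inactive libraries. GB52320, all of whose 3 positions lay within GB52279, had 62.4, 661 and 1645 CPM with active ovaries and 0.648, 61.5 and 431 with inactive ovaries. The groups overlapped for both genes. The log2 changes were 2.13 ± 0.37 (SE) and 3.17 ± 0.88 (edgeR quasi-likelihood test, adjusted p = 6.8e-04 and 0.014). Their adjusted p was 0.063 and 0.093 without prefix 882, and that of GB52320 was 0.086 without 888. In the 4 inactive libraries of prefix 882 GB52320 had 0.815, 6.52, 0.648 and 1.55 CPM, with GB52279 between 69.3 and 134 CPM.

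GB55388/GB55620, whose D share reversed between prefixes, was the pair with the largest fall. GB55388 had 60.5, 173 and 459 CPM (lowest, median and highest) with active and 77.6, 491 and 1387 with inactive ovaries. GB55620 had 7.80, 19.7 and 38.6 CPM with active and 9.03, 45.6 and 124 with inactive ovaries. The groups overlapped. The log2 changes were -1.54 ± 0.35 (SE) and -1.36 ± 0.28 (edgeR quasi-likelihood test, adjusted p = 0.0034 and 0.0020). Without prefix 882 the adjusted p was 0.086 and 0.082, and without 888 it was 0.091 and 0.067. Over the 25 libraries GB55620 had 9.47% of the counts of GB55388.

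The 1 pair called in opposite directions was GB47551/GB47652 on Group16.5, which shared 1 position with 122 reads. GB47551 had 24.9, 116 and 254 CPM (lowest, median and highest) with active and 109, 242 and 369 with inactive ovaries. GB47652 had 34.3, 55.1 and 89.9 with active and 24.6, 43.4 and 54.6 with inactive ovaries. The log2 changes were -0.94 ± 0.22 (SE) and 0.48 ± 0.16 (edgeR quasi-likelihood test, adjusted p = 0.0047 and 0.028). Without prefix 882 the adjusted p was 0.105 and 0.140, and without 888 it was 0.111 and 0.287. That of GB47652 was 0.086 without inactive replicates 6, 8 and 9. The correlation of the totals was r = 0.12 and rho = 0.19 over 25 libraries (permutation test, adjusted p = 0.737 and 0.632). It was r = -0.27 over the active and r = 0.70 over the inactive libraries, r = 0.65 without prefix 875 and r = 0.52 without the 2 farthest libraries. The difference between the statuses was not tested.

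**Figure D5:**
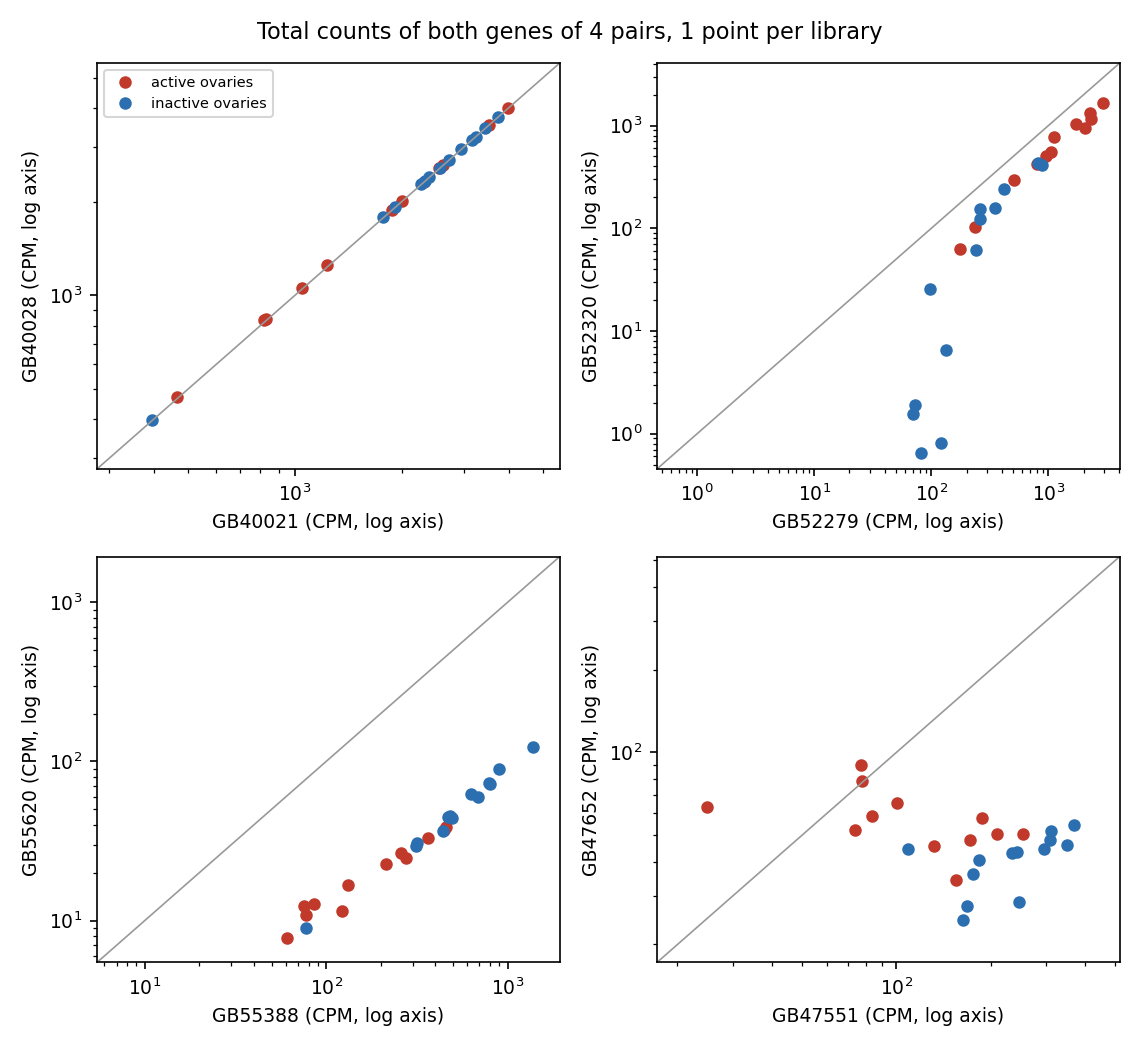
CPM of both genes of 4 pairs, 1 point per library on log axes, with the line of equal values; red points are active and blue points inactive libraries. GB40021/GB40028 lies on the line, GB52320 falls below 10 CPM in 5 inactive libraries while GB52279 stays above 60, and in GB47551/GB47652 the totals run together among inactive libraries (r = 0.70) and not among active ones (r = -0.27).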

How the data were processed

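The authors deposited raw read counts per gene and raw D and Q counts per position for each library; per the submitters' processing notes TopHat and edgeR were used, with no versions given. The sources used here do not name the genome build, the counting tool, the strand setting or the rule for assigning reads to a parent. A position listed under 2 genes was counted once. Separating positions had 10 or more reads in 2 or more libraries of a prefix, and their squared D minus Q difference, divided by the reads and summed over libraries, exceeded the 0.01 quantile of the chi-square distribution. Tested positions met that read minimum in each ovary status and were listed in both tables.

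Parental ratios were tested with edgeR 4.0.16 in R 4.3.3, within each prefix, with a block for each library, and per gene over the 4 prefixes; expression by ovary status was tested with TMM scaling and prefix as a covariate. Adjusted p (Benjamini-Hochberg over all features of a fit) under 0.05 made a call. limma 3.58.1, DESeq2 1.42.0 and other alternatives are given in the closing section, and the tests were checked on simulated data. Pooled shares used exact permutations. Correlations used Python 3.11.15 with scipy 1.17.1. CPM used TMM-scaled totals, and their depth is the gene total of each library. The labels do not say that bees came from separate colonies or parents, so p-values measure the spread between these libraries.

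Named were the 2 largest pairs, the 2 positions in each direction with the largest ratio called in most prefixes (at least 500 reads), the ovary differences with the smallest p, 1 pair with both genes higher, 1 with both lower and 1 opposite with the largest changes, the pairs of highest and lowest correlation, and at most 2 genes in each direction whose call depended on shared positions. The pairs and lists were chosen with earlier results of these data known.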

Additional observations from a re-analysis of the deposited data

Results flagged for a closer look

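In 31 groups of 4 to 10 libraries tested for a value far from the others, 3 stood apart, where chance gives about 1 in 20. In the inactive libraries of prefix 882, the D share at Group2.18 position 497301 of GB49768/GB49799 was 35.1% in 1 library. In the same 4 libraries the D share at Group4.9 position 1320206 of GB50402/GB50482 was 91.7% in 1 library and 100% in the others. Together these libraries held 48 D reads and 1 Q read there, so that value rests on 1 read. GB52320 had 6.52 CPM in 1 of them and less than 2 in the others.

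The test of the difference between ovary statuses was passed in prefix 888 at Group5.14 positions 2241749, 2241835 and 2242120, with log2 differences of 2.13, 2.16 and 2.16 (edgeR quasi-likelihood test). The mean D share at Group4.9 position 1320206 of GB50402/GB50482 was 98.2% in prefix 882 and 22.7% in prefix 875, with every library of one prefix above and every library of the other below 50%. This difference between prefixes was not tested.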

How the results depend on the processing

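The active minus inactive difference in D share (-1.83 points) turned positive with the mean of single positions (0.88), without prefix 888 (0.12), without inactive replicates 6, 8 and 9 (0.15) and, chosen after seeing the data, without GB42956/GB42974 (1.15). Leaving out 1 library gave -3.13 to 0.65. The shared minus unshared difference turned positive with the mean of single positions (0.64) and, chosen after seeing the data, without GB51989/GB52090 (3.45, or 3.39 without the unshared positions of its genes). The 240 co-variation calls became 145 with both genes at a log2 CPM of at least 4, 74 with active and 156 with inactive libraries. Only pairs passing that level were tested for the 145, so they come from fewer than 375 pairs. Shares called among neighbours are not given for these settings. The 157 expression calls became 245, 1 and 12 without prefixes 875, 882 and 888, and 81 without inactive replicates 6, 8 and 9. Shares called among all genes are not given for these settings. Parental calls of members (96 active, 56 inactive) became 46 and 28 without shared positions, and 95 inactive with every position. The 311 position calls became 114 with every position and, chosen after seeing the data, 159 without 3 pairs; leaving out 1 library gave 232 to 324. The 3 ovary differences became 0 with every position, above the chi-square median, centred, or without inactive replicates 6, 8 and 9, 1 with limma, and 0 to 16 without 1 library. Shares of all positions called for that difference are not given for these settings. The cause was not tested. Of the values for comparisons, 136 of 167 alternatives kept their direction and call. Low reads limit single positions. No paired analysis was possible because replicate numbers follow the deposited order and carry no pairing.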
